A study of Glycine max with 6 samples.

Results

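In soybean hairy roots, 76 genes stood at least 2-fold above the control with both of the constructs that target GmPHD6, although one construct was built to raise that gene and the other to silence it. The rule took genes with an OK estimate and a value above 0 in each of the 3 pooled columns. Their highest value had to be at least 3 FPKM (fragments scaled by transcript length and by library depth). Their log2(FPKM + 1) had to be at least 1 above the control column with both constructs. A difference of 1 on this scale is called 2-fold here, and in low genes it is more than 2-fold in FPKM. The rule left out the stretch of chromosome 13 from 3083566 to 4226773. Of 56044 gene models 25717 were eligible under the filters, and the 76 make up 0.296% of these. The genes were chosen by the 2 measured differences from control, which are therefore given as descriptions and carry no test.

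The libraries came from hairy roots of the soybean strain KF1, with 2 libraries in each of 3 groups. The overexpression group carried Agrobacterium rhizogenes strain K599 with a GmPHD6 overexpression construct, the RNAi group carried K599 with a GmPHD6 RNA interference construct, and the control group is labelled K599 with a wild type genotype. All 6 libraries therefore come from roots induced by the same bacterial strain, and the labels do not say whether the control bacterium held an empty vector, which promoter drove the constructs, how many roots were pooled in a library, or whether libraries of 1 group stem from different plants. Plants were kept at 28 °C in days of 16 h, the bacteria were injected 2 cm above the ground, and roots were taken at lengths of 2 to 10 cm.

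GmPHD6 belongs to the Alfin-like proteins of plants, which carry a PHD finger, a small zinc-binding fold that in many nuclear proteins reads the methylation state of histone H3. Hairy roots form when the bacterium moves part of its root-inducing plasmid into plant cells, so each root usually starts from its own transformation event. RNA interference lowers a transcript through double-stranded RNA of matching sequence, and an overexpression construct adds transcript of the same gene. The submitters' design asked for genes up with overexpression and down with RNAi, and the genes described here lay above control with both.

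The table does not pair gene IDs with names or functions, and none of its IDs appears in the RefSeq gene table of assembly Glycine_max_v4.0. The roles of the genes, the root markers that would check the tissue, and GmPHD6 itself were therefore not analysed here. Only the 2 leading genes are named by ID, and the others are given by chromosome, start and end as deposited, in a table whose IDs carry the tag of annotation Wm82.a2.v1. The column headed G6 was taken to be overexpression, because the remaining headers read RNAi and K599. Each column holds 1 pooled value per gene, so the values have no replicate error. Errors are the lower and upper bounds that the authors deposited, read here as counting error. So read, bounds that do not meet do not show how far the libraries of a group lay apart. The bounds correspond to about 14651645 fragments per library with overexpression, 15340500 with RNAi and 15226733 in control, on the assumption that each bound is 2 SD of counting error away. In bulk roots, fewer cells of a type and less RNA per cell cannot be told apart.

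Overexpression alone placed 249 eligible genes (0.968%) at least 2-fold above control, and RNAi alone placed 1754 (6.82%). The 76 shared genes are 30.5% of the first list and 4.33% of the second. Both lists were set against the same control libraries, so a low control value moves a gene up in both at once. The opposite set, at least 2-fold below control with both constructs, held 143 genes (0.556%), where overexpression alone placed 1.72% below control and RNAi alone 6.58%. Among the 76, the difference from control had a median of 1.57 on the log2(FPKM + 1) scale with overexpression and 1.99 with RNAi, beside medians of 0.02 and 0.07 over all eligible genes. The smaller of a gene's 2 differences was at least 2 in 21 genes and under 1.5 in 43.

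**Figure D1:**
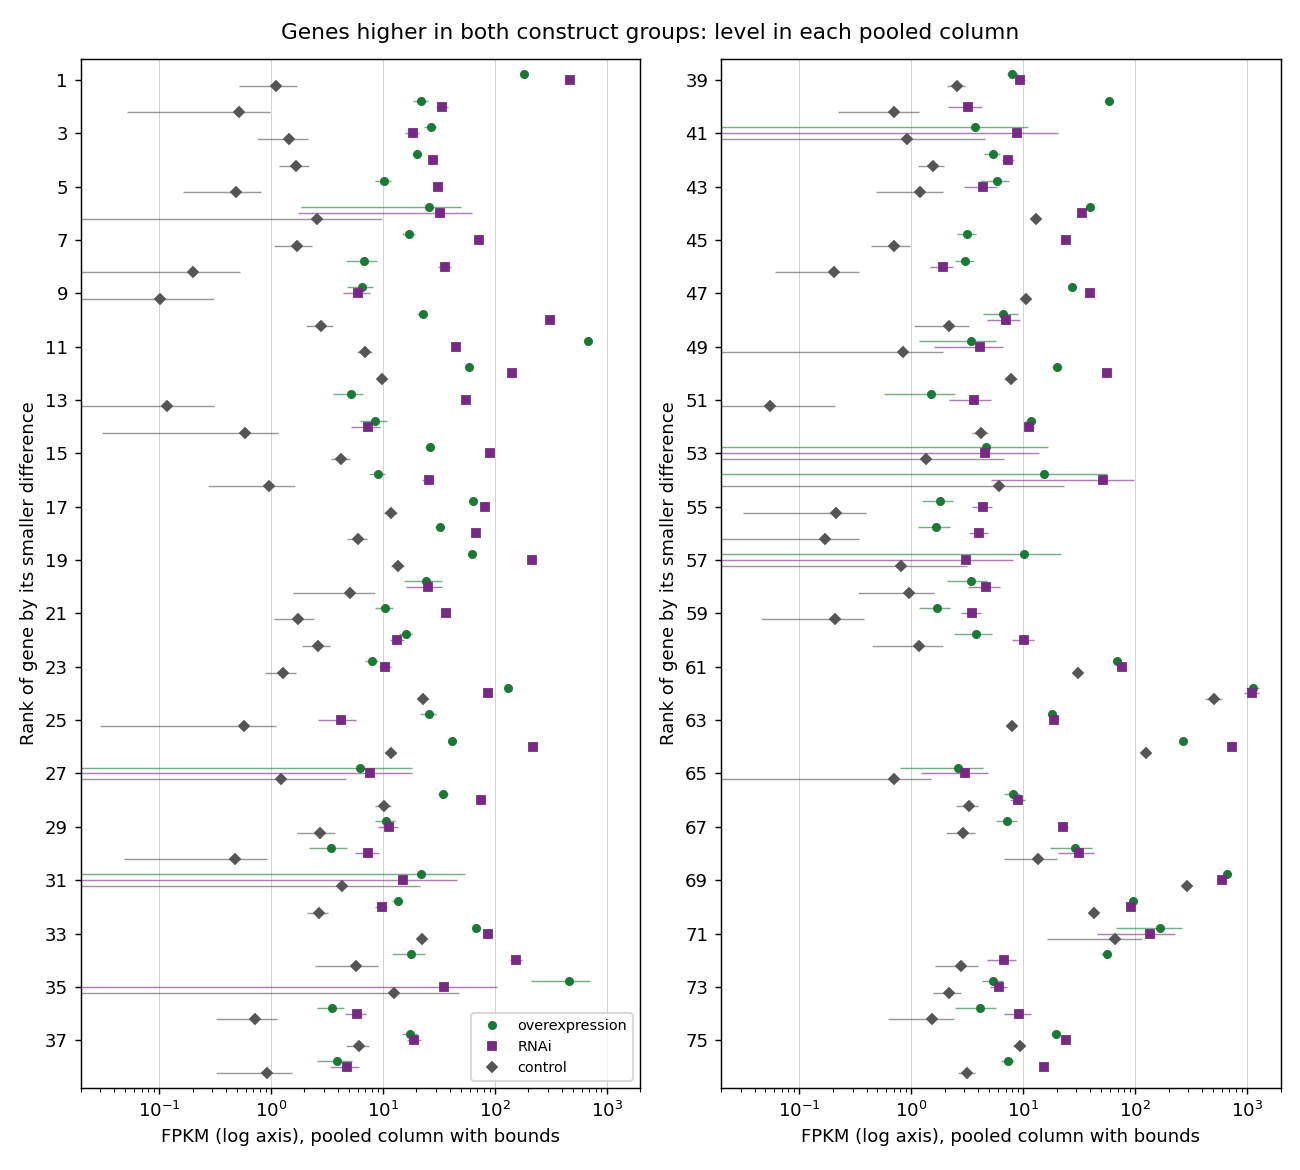
Level of the 76 genes in the overexpression (circles), RNAi (squares) and control (diamonds) columns, in FPKM on a log axis, ranked by the smaller of the 2 differences from control. Lines are the authors' bounds, and a line that meets the left edge has a lower bound of 0 or below the axis. Control values run from 0.0547 to 511 FPKM, and in 12 genes the control line overlaps that of at least 1 construct.

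The set was led by Glyma.08G250300 on chromosome 8 (21883791 to 21885282), which read 184 FPKM with overexpression, 472 FPKM with RNAi and 1.11 FPKM in control. Its value was 166 times the control value with overexpression and 426 times with RNAi. Glyma.17G117200 on chromosome 17 (9234325 to 9235375) read 21.9, 34.0 and 0.521 FPKM in the same order of groups, with bounds of 18.6 to 25.2 FPKM, 29.9 to 38.1 FPKM and 0.0523 to 0.990 FPKM. In both genes the bounds with either construct lay clear above those in control, and RNAi was the higher construct.

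Genes of this leading group differed in how far the constructs were apart. On chromosome 11 (4562475 to 4563245) a gene read 26.8 FPKM with overexpression (bounds 23.5 to 30.1), 18.6 FPKM with RNAi (16.0 to 21.3) and 1.45 FPKM in control (0.758 to 2.15). On chromosome 15 (6275399 to 6277845) the values were 20.3 FPKM with overexpression, 28.0 FPKM with RNAi and 1.69 FPKM in control. On chromosome 5 (798135 to 799349) they were 6.49 and 6.02 FPKM with the constructs against 0.102 FPKM in control. In the first of these 3 genes overexpression was the higher construct beyond the bounds, in the second RNAi was, and in the third the construct bounds overlapped.

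A gene on chromosome 20 (35592129 to 35594408) read 59.5 FPKM with overexpression, 142 FPKM with RNAi and 9.86 FPKM in control. One on chromosome 17 (12147020 to 12148922) read 63.7, 81.7 and 11.9 FPKM in that order, and one on chromosome 4 (6629092 to 6630377) read 131, 87.8 and 23.1 FPKM. These 3 genes had a clear level in control already, and their bounds, such as 124 to 137 FPKM with overexpression and 20.7 to 25.5 FPKM in control for the last, did not meet.

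Levels in control were low for most of the set. In control 23 of the 76 genes read under 1 FPKM and 22 read from 1 to under 3 FPKM, whereas 0.743% of all eligible genes read under 1 FPKM. The control value is part of the rule, and a gene under 1 FPKM in control can reach the filter of 3 FPKM only through a construct column, so this contrast was largely set by the choice of genes. The median was 15.9 FPKM with overexpression, 21.0 FPKM with RNAi and 2.58 FPKM in control, beside 8.91, 9.12 and 8.96 FPKM over all eligible genes. The 16 genes of at least 10 FPKM in control had a median difference of 1.42 with overexpression and 1.60 with RNAi. The 23 genes under 1 FPKM in control had medians of 1.59 and 2.14, and log2(FPKM + 1) understates the change of such low genes.

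At least 100 FPKM in control was read by 3 of the 76 genes (3.95%) and by 3.58% of all eligible genes, a similar share. A gene on chromosome 5 (36452597 to 36452774) had the highest values of the set, at 1134 FPKM with overexpression (bounds 981 to 1288), 1111 FPKM with RNAi (945 to 1277) and 511 FPKM in control (419 to 602). On chromosome 17 (1207436 to 1211290) a gene read 670.0 FPKM with overexpression, 604 FPKM with RNAi and 289.9 FPKM in control. On chromosome 18 (691243 to 695517) a gene read 271, 733 and 126 FPKM in the same order. The first pair stood between 2.09 and 2.31 times control with either construct, and the third stood at 2.16 times control with overexpression and 5.84 times with RNAi. All 76 genes together held 5024 FPKM with overexpression (0.603% of that column), 5809 FPKM with RNAi (0.770%) and 1355 FPKM in control (0.2002%). In each column the 5 highest genes held more than the others of the set combined, with 3225 against 1799 FPKM with overexpression, 3234 against 2575 FPKM with RNAi and 1036 against 319.5 FPKM in control.

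**Figure D2:**
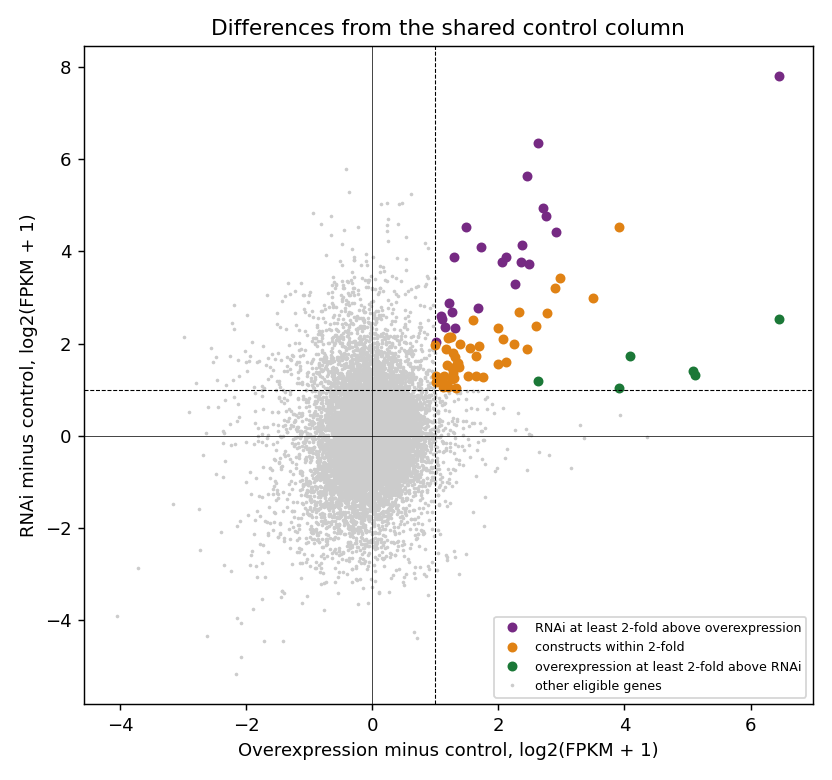
Difference from control with overexpression (horizontal) and with RNAi (vertical), both on the log2(FPKM + 1) scale, for the 76 genes in colour and the other eligible genes in grey. Dashed lines mark a difference of 1 on each axis, and both axes use the same control column. The 23 genes with RNAi at least 2-fold above overexpression reach 7.81 on the vertical axis, and the 6 of the opposite kind lie between 1.03 and 2.53 on it.

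The rule did not use the difference between the constructs, although both columns entered it, so that difference is also only described. Overexpression was at least 2-fold above RNAi in 6 of the 76 genes, against 6.47% of all eligible genes, and at least 2-fold below RNAi in 23, against 7.77%. The remaining 47 genes (61.8%) differed by less than 1 on the log2(FPKM + 1) scale, and 35 (46.1%) by less than 0.5. Both shares were smaller than over all eligible genes, where the overexpression minus RNAi difference had quartiles of -0.34 and 0.31. In low genes a difference under 1 can exceed 2-fold in FPKM, such as 1.68 against 4.08 FPKM on chromosome 17 from 12106585. The overexpression minus RNAi difference had a median of -0.33 over the 76 genes and -0.03 over all eligible genes. Its median was 1.09 over the 249 genes higher with overexpression and -1.62 over the 1754 higher with RNAi, and both lists hold the 76. By the authors' bounds, overexpression lay above RNAi in 11 genes (22.2% of eligible genes did) and below it in 36 (25.8%), and the construct bounds overlapped in 29.

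**Figure D3:**
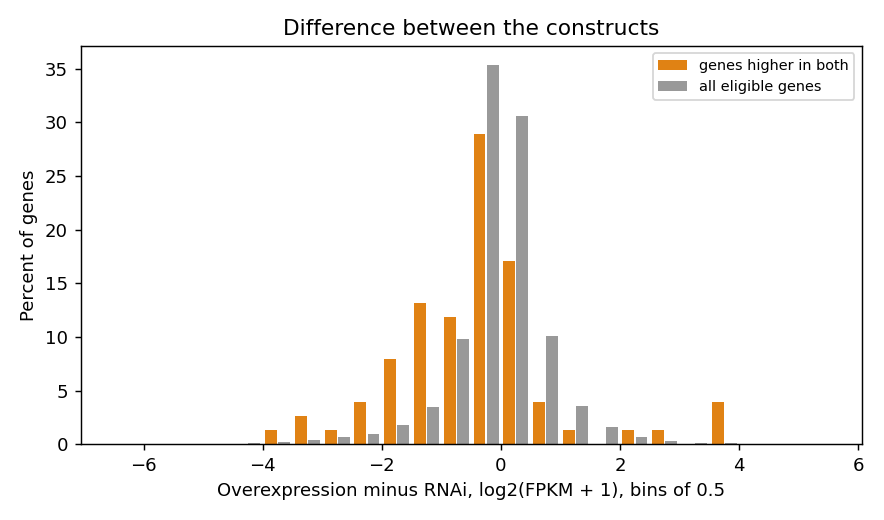
Overexpression minus RNAi difference on the log2(FPKM + 1) scale in bins of 0.5, as the percent of the 76 genes (orange) and of all eligible genes (grey). The 76 genes have a median of -0.33 and a shoulder on the negative side, where RNAi is higher, and all eligible genes have a median of -0.03.

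The 23 genes with RNAi well above overexpression had median levels of 17.2 FPKM with overexpression, 55.8 FPKM with RNAi and 2.84 FPKM in control. The widest gap was on chromosome 11 (9303964 to 9305430), at 22.7 FPKM with overexpression (bounds 20.3 to 25.1), 313 FPKM with RNAi (304 to 322) and 2.84 FPKM in control (2.04 to 3.63). On chromosome 18 (55551451 to 55552437) a gene read 5.16 FPKM with overexpression, 55.0 FPKM with RNAi and 0.118 FPKM in control. On chromosome 8 (2710772 to 2711084) a short gene model read 17.9, 156 and 5.79 FPKM in that order. Each of these 3 genes was over 8 times as high with RNAi as with overexpression, a ratio of 13.8 for the first, 10.7 for the second and 8.67 for the third.

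Others of the 23 had a smaller gap between the constructs. On chromosome 19 (46657717 to 46658772) the values were 17.2 FPKM with overexpression, 72.4 FPKM with RNAi and 1.70 FPKM in control. On chromosome 8 a gene from 13479148 to 13481496 read 41.8, 219 and 11.9 FPKM, and one from 19152129 to 19153160 read 63.0, 215 and 13.7 FPKM. In this group of 23 the difference from control ran from 1.012 to 6.46 with overexpression and from 2.03 to 7.81 with RNAi, and the construct bounds were apart in 21 genes. More of the same kind lay on chromosome 3 (7561668 to 7566253), at 3.18, 24.1 and 0.703 FPKM, and on chromosome 18 (2549081 to 2549732), at 6.82, 36.1 and 0.203 FPKM.

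The 6 genes with overexpression well above RNAi read a median of 57.2 FPKM with overexpression, 5.48 FPKM with RNAi and 1.80 FPKM in control. On chromosome 9 (6937813 to 6941687) a gene read 689 FPKM with overexpression (bounds 677 to 702), 44.8 FPKM with RNAi (42.1 to 47.5) and 6.92 FPKM in control (5.86 to 7.97). On chromosome 13 (39910645 to 39911395) a gene read 58.6 FPKM with overexpression, 3.24 FPKM with RNAi and 0.705 FPKM in control. On chromosome 8 (45583866 to 45584828) a gene read 55.9, 6.77 and 2.79 FPKM in the same order. Their difference from control was far above the threshold with overexpression, from 3.91 to 6.45, while with RNAi it was 2.53, 1.31 and 1.03.

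Another gene of this kind, on chromosome 1 (51789270 to 51789839), read 25.7 FPKM with overexpression, 4.20 FPKM with RNAi and 0.570 FPKM in control. The remaining 2 of the 6, on chromosome 2 (45149236 to 45149395) and chromosome 3 (36270700 to 36271244), rested on few fragments and are given with their library values below. Bounds with both constructs lay clear of control in 4 of the 6 genes.

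In 47 genes the constructs lay less than 1 apart on the log2(FPKM + 1) scale. Their median levels were 10.7 FPKM with overexpression, 11.3 FPKM with RNAi and 2.56 FPKM in control. Their differences from control had a median of 1.34 with overexpression and 1.59 with RNAi. Close pairs of construct values were seen at chromosome 9 (46845715 to 46846099), with 24.6 and 25.2 FPKM against 5.06 FPKM in control, and at chromosome 2 (10509887 to 10511974), with 95.3 and 91.5 FPKM against 43.5 FPKM in control. A long gene model on chromosome 16 (7165960 to 7193294) read 68.8 FPKM with overexpression (bounds 67.6 to 70.1), 77.3 FPKM with RNAi (76.0 to 78.6) and 30.7 FPKM in control (29.97 to 31.5). Its bounds lay apart between all 3 columns, and it shares its locus with another gene model.

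At the edge of the rule, the genes differed little from those left out. The last gene inside, on chromosome 10 (3413961 to 3416015), read 7.34 FPKM with overexpression, 15.3 FPKM with RNAi and 3.17 FPKM in control, a smaller difference of 1.0006. The next above it, on chromosome 9 (2034032 to 2037010), read 19.7, 24.5 and 9.35 FPKM. The first gene outside, on chromosome 11 from 10984326, read 58.8, 53.8 and 26.5 FPKM, and its difference with RNAi was 0.996. The second outside, on chromosome 18 from 57894036, read 35.6, 45.1 and 17.4 FPKM, and its difference with overexpression was 0.992.

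The authors' bounds with overexpression lay above those in control in 65 of the 76 genes, where 14.4% of eligible genes did so, and those with RNAi in 65, where 28.7% did. Both were clear of control in 64 genes, against 6.13% of eligible genes. Since the rule used the same contrast, these shares are a description, and clear bounds do not show the spread between libraries. Of the 12 genes without clear bounds, 11 had fewer than 10 control fragments per library by the bounds, 5 share a locus with another gene model, and 3 span under 0.2 kb. Over the 64 genes with clear bounds the median difference from control was 1.61 with overexpression and 2.11 with RNAi.

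Within the set, the values in control rested on the fewest fragments, and the rule itself favours genes that are low in control. Over all eligible genes control had the highest median, at 252.9 fragments per library, against 209.3 with overexpression and 229.3 with RNAi. By the width of the bounds, 43 genes of the set had at least 100 fragments per library with overexpression, 45 with RNAi and 22 in control. Under 1 fragment per library stood behind 2 values with overexpression, 3 with RNAi and 10 in control. In 7 genes every column had fewer than 10 fragments per library, and none of these 7 had clear bounds. Where gene models overlap, wide bounds can also hold the error of assigning fragments, and the fragment numbers of such genes are then too low. One such gene on chromosome 9 (40728536 to 40735621) read 15.5 FPKM with overexpression (bounds from 0), 51.4 FPKM with RNAi (from 5.20) and 6.09 FPKM in control (from 0).

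Among genes with few fragments, some pooled values could be split into whole fragments of the 2 libraries. These are here called A and B because their replicate numbers are not known. The split gave the control libraries of 27 of the 76 genes, the overexpression libraries of 7 and the RNAi libraries of 6, all at low counts. It was tried up to 40 fragments, a range that held 43 of the 76 genes in control, 22 with overexpression and 18 with RNAi. Counting error alone is covered by the limits given for a count of 0, which allow up to 3 fragments. In all 27 genes both control libraries lay below the pooled values of both constructs, an outcome that the rule had fixed. The 2 libraries average to the pooled control value, so neither can exceed 2 times that value. Every gene of the set lies above that level with both constructs. In 22 of the 27 genes both control libraries lay below the lower bounds of both constructs as well.

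Glyma.17G117200 had 7 fragments (0.722 FPKM) in control library A and 3 (0.321 FPKM) in library B, against 21.9 FPKM with overexpression and 34.0 FPKM with RNAi. The gene on chromosome 9 from 37120769 read 10.2 FPKM with overexpression, 30.9 FPKM with RNAi, and 0.372 and 0.606 FPKM in the control libraries. The gene on chromosome 18 from 55551451 had 3 fragments (0.236 FPKM) in control library A and 0 in B, which allows up to 0.245 FPKM. In these 3 genes both control libraries were low and close to each other beside the construct values.

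Other genes had control libraries that disagreed. On chromosome 8 from 2710772 control library A held 22 fragments (10.1 FPKM) and B held 3 (1.43 FPKM), against 17.9 FPKM with overexpression. On chromosome 17 (18908344 to 18908803) A held 25 fragments (3.47 FPKM) and B held 6 (0.862 FPKM), against 6.69 FPKM with overexpression and 7.10 FPKM with RNAi. From library A alone the smaller difference of these genes was 0.77 and 0.78, under the threshold, and from library B alone it was 2.96 and 2.05. Across the 27 genes, 7 had control libraries at least 2-fold apart on the log2(FPKM + 1) scale, and among all 422 eligible genes with recovered control libraries 16.8% did. Against library A alone 22 of the 27 genes stayed at a difference of at least 1 with both constructs, against B alone 24, and 19 did so against each. The 5 that fell short against A were those on chromosome 8 from 2710772, chromosome 17 from 18908344, chromosome 10 from 41602271, chromosome 3 from 36270700 and chromosome 11 from 33004037. The 3 that fell short against B were those on chromosome 2 from 45149236, chromosome 9 from 3315720 and chromosome 13 from 16984434.

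**Figure D4:**
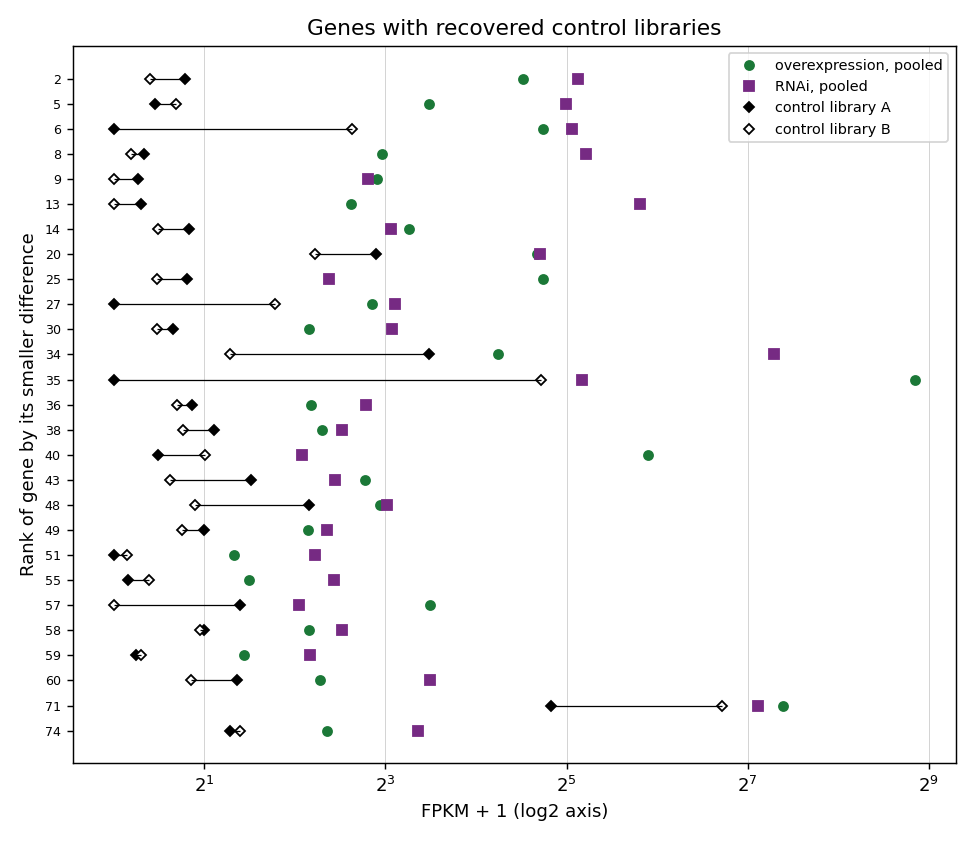
The 27 genes whose control libraries could be recovered, by rank, with the pooled overexpression (circles) and RNAi (squares) values and control libraries A (filled diamonds) and B (open diamonds), as FPKM + 1 on a log2 axis. In each row both diamonds lie to the left of the circle and the square, which the rule had fixed. The line between the diamonds is the gap between the control libraries.

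All 6 libraries were recovered for 6 genes, and they show how few fragments can stand behind a high FPKM in a short gene model. The gene on chromosome 2 (45149236 to 45149395) read 461 FPKM with overexpression, where library A held 1 fragment (31.2 FPKM) and B held 24 (891 FPKM). Its RNAi value of 35.1 FPKM was 1 fragment in each library, and its control value of 12.6 FPKM was 0 fragments in A, which allows up to 73.2 FPKM, and 1 in B. The overexpression level of that gene thus came almost wholly from 1 library, and the RNAi and control values differed by 1 fragment.

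On chromosome 15 (3492742 to 3492925) the fragments in libraries A and B were 9 and 1 with overexpression, 5 and 4 with RNAi and 0 and 1 in control. On chromosome 3 (33688357 to 33688764) they were 0 and 2, 2 and 2, and 0 and 1 in the same order of groups. On the same chromosome, the gene from 36270700 had 3 and 3 with overexpression, 1 and 2 with RNAi and 1 and 0 in control. At these counts the construct values were not distinguishable from control within the authors' bounds.

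Among the remaining 2 genes, the one on chromosome 9 (3315720 to 3315894) had 7 and 15 fragments with overexpression, 9 and 9 with RNAi, and 3 and 11 in control. The one on chromosome 6 (1948589 to 1948952) had 13 and 6, 13 and 9, and 3 and 2. In the first, control library B (104 FPKM) lay above overexpression library A (93.8 FPKM), so the libraries of these groups overlapped. In the second, no control library (0.996 and 0.688 FPKM) reached a library with overexpression (4.44 and 2.43 FPKM) or with RNAi (4.78 and 3.42 FPKM). Over the 7 genes with recovered overexpression libraries, 4 had libraries at least 2-fold apart, beside 29.7% of 525 eligible genes. Over the 6 genes with recovered RNAi libraries 0 did, beside 21.0% of 496 eligible genes. With overexpression library A alone, 3 of the 7 were under a difference of 1, on chromosome 3 from 33688357, chromosome 9 from 3315720 and chromosome 16 from 3590424. With library B alone 2 were, on chromosome 15 from 3492742 and chromosome 6 from 1948589.

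Position and span were not used by the rule, the chromosome 13 stretch apart. The 76 genes lay on 19 of 20 chromosomes, with 8 on chromosome 17, 7 each on chromosomes 9 and 16, and none on chromosome 12, where 1106 genes were eligible. They made up 0.751% of eligible genes on chromosome 16 and 0.608% on chromosome 17. None of the 76 had another of them as its next gene model. Of the 143 genes lower with both constructs 4 did (2.80%). In the longer lists 17 of the 249 genes higher with overexpression (6.83%) and 249 of the 1754 higher with RNAi (14.2%) did. A longer list holds more neighbours by its size alone, and 76 genes among 56044 gene models would hold few, so these counts are only descriptions.

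Within 3 gene models of each other lay 7 of the 76 genes, in 3 groups. On chromosome 17, 3 genes lay between 12106585 and 12148922. The first read 1.68 FPKM with overexpression, 4.08 FPKM with RNAi and 0.171 FPKM in control, the second, from 12133106, read 1.82, 4.40 and 0.213 FPKM, and the third is the gene of 63.7 FPKM with overexpression given above. The 3 gene models between them read at most 0.425 FPKM in any column. The first and second thus had nearly the same level in each column, and whether they share fragments was not tested.

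On chromosome 19, genes from 37043839 to 37047492 and from 37079574 to 37083107 read 39.3 and 11.7 FPKM with overexpression, 33.6 and 11.3 FPKM with RNAi and 13.02 and 4.19 FPKM in control. The gene model from 37069672 between them read 9.67, 5.13 and 10.9 FPKM in the same order and so was not higher with either construct. On chromosome 16, genes from 22344440 and from 22612052 read 29.2 and 3.47 FPKM with overexpression, 32.0 and 7.43 FPKM with RNAi and 13.5 and 0.483 FPKM in control. A gene model between them, from 22560473, read 0.555 FPKM with overexpression, 11.9 FPKM with RNAi and 0.0746 FPKM in control, and did not reach the threshold with overexpression.

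Gene models of the set were short. Their span from start to end, introns included, had a median of 1.48 kb, against 3.89 kb over all eligible genes. Spans under 1 kb were found in 29 genes (38.2%), against 5.90% of eligible genes, and spans under 0.2 kb in 4 genes (5.26%), against 0.202%. Of the genes higher with overexpression 33.7% spanned under 1 kb, of those higher with RNAi 14.2%, and of those lower in both groups 21.7%. Among the 64 genes with clear bounds 22 spanned under 1 kb (34.4%). Short gene models collect fewer fragments at a given FPKM, and the part of counting error in this share was not tested. Another gene model shared the locus of 10 of the 76 genes, against 6.79% of eligible genes.

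**Figure D5:**
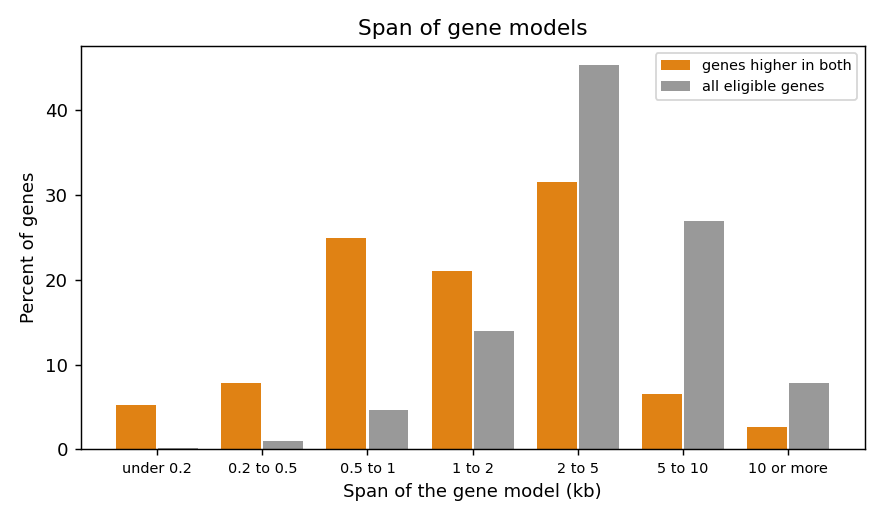
Span of gene models in kb, as the percent of the 76 genes (orange) and of all eligible genes (grey) in each class. The class from 0.2 to 0.5 kb holds 7.89% of the 76 genes and 0.999% of eligible genes, and the class from 5 to 10 kb holds 6.58% and 26.95%.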

How the data were processed

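The authors deposited FPKM values with a lower and an upper bound and a status flag, per the file headers, as 1 column set per group, so the 2 libraries of each group had been combined. Per the submitters' processing notes, TopHat was used. No source used here gives its version, the tool behind the FPKM values or the level of the bounds. The genes and settings were chosen with earlier results of these data known.

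Differences were computed as log2(FPKM + 1) with pandas 2.3.3 and numpy 2.4.6 in Python 3.11.15. With 1 pooled value per group and members chosen on the contrasts, no test was run. Members were ranked by the smaller of their 2 differences, and the first 2 were named by ID; those described singly beyond this rank order were chosen after their values were seen.

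Fragments per library were computed as the square of 2 FPKM divided by the distance from the value to its upper bound. Values up to 40 fragments were matched to whole fragments from libraries of 2 different sizes, within rounding error and where chance would match under 0.05 of values. Matches were found for 50.98% of such values with overexpression, 52.5% with RNAi and 54.2% in control, and for 0.565%, 0.313% and 0.424% with mismatched steps. The rule and the splitting were tested on simulated data. Alternatives covered pseudocount, level filter, fold size, scaling, bounds, shared loci, the chromosome 13 stretch and single libraries.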

Additional observations from a re-analysis of the deposited data

How the results depend on the processing

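The set of 76 genes depended mostly on the pseudocount and the fold size. With log2(FPKM + 0.1), a scale that widens differences of low genes, 153 genes met the rule, all 76 among them. A gene that meets the rule also meets it with any smaller pseudocount, so keeping all 76 was fixed in advance. Of the 153 genes, 104 had bounds clear of control, 62 had RNAi at least 2-fold above overexpression, 10 the opposite and 6 lay next to another. With log2(FPKM + 0.5) the set held 107 genes, 35 with RNAi at least 2-fold above overexpression and 4 next to another. A 4-fold rule left 21 genes, 20 with clear bounds, 12 with RNAi and 1 with overexpression at least 2-fold above the other construct. With a highest level of at least 1 FPKM, or with no such filter, 2 genes lay next to another; with at least 10 FPKM, 53 genes met the rule. Upper quartile scaling, trimmed mean scaling and quantile normalization gave 69, 67 and 74 genes, of which 69, 67 and 71 are among the 76. Under the 2 other pseudocounts and these 3 scalings 65 of the 76 met the rule each time, and the pseudocounts could remove none. Under every setting of the pooled table but the 4-fold rule 37 met it. Requiring clear bounds and leaving out shared loci together, a choice added after seeing the data, left 59 genes.

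Without 1 overexpression library, 4 to 5 of the 7 genes with recovered overexpression libraries stayed at least 2-fold above control (4 without library B). Without 1 RNAi library 5 to 6 of 6 did, and without 1 control library 22 to 24 of 27. For 23 genes (ranks 1 to 20, 34, 35 and 40) 230 differences were recomputed under other pseudocounts and scalings. Of these 0 changed sign, 0 came under 1 and 42 moved by more than the error taken from the bounds. The smallest difference of these genes was 1.31. The 2 smaller pseudocounts can only raise a difference above 0, so with them the outcome was fixed in advance. The upper quartile and trimmed mean factors of the construct columns ran from 0.934 to 0.994, too close to 1 to bring 1.31 under 1. The genes at the edge of the rule that are described above were not recomputed in this way. No paired analysis was possible because each group has 1 pooled column and the recovered libraries carry no replicate number. In control 43 of the 76 genes lay within the counts at which splitting was tried, and 27 of these were split. With overexpression 7 of 22 were split, and with RNAi 6 of 18. For the other genes the spread between libraries was not analysed here.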

Other observations

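Genes listed at 0 in control were outside the rule. Of these, 23 read at least 1 FPKM with both constructs and at least 3 FPKM with one. Their median was 7.60 FPKM with overexpression and 8.76 FPKM with RNAi, and the highest, on chromosome 16 (7025976 to 7032249), read 97.2 FPKM with overexpression and 74.2 FPKM with RNAi, both with a lower bound of 0. The lower bound was 0 with both constructs in 21 of the 23. No fold is given against control values of 0, since some of these may be estimates that failed. A single one had lower bounds above 0 with both constructs, on chromosome 12 (1090327 to 1090698), at 3.70 FPKM with overexpression (bounds 0.479 to 6.92) and 8.23 FPKM with RNAi (lower bound 3.45).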
